A study of Mus musculus with 11 samples.

Results

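*Tbx21*, *Eomes*, *Zeb2* and *Prdm1*, 4 genes for transcription factors of effector lymphocytes, were followed through the called ATAC-seq peaks of thymocytes and bone marrow progenitors of the mouse. A peak belonged to a gene when it overlapped the gene body, extended by 20 kb on each side, by at least 1 bp. This rule took 153 of the 298164 peaks of 9 libraries. Peaks that shared at least 1 bp were merged across libraries, and 35 of the 71400 merged intervals lay at the 4 loci, 2 at *Tbx21*, 4 at *Eomes*, 14 at *Zeb2* and 15 at *Prdm1*. The 4 genes are 4 of 17744 protein-coding genes with a peak in any library.

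ATAC-seq uses a transposase that cuts and tags accessible DNA, so that a peak marks a stretch of open chromatin. The libraries came from C57BL/6 mice, per the labels, of 4 to 8 weeks of age, per the methods of the study. In the thymus, 2 libraries were made from CD4SP thymocytes (conventional CD4 single positive T cells) and 2 from NKT thymocytes (T cells that recognise lipids on CD1d). In the bone marrow, 3 were made from CLP (common lymphoid progenitors) and 2 from ILCP (precursors of innate lymphoid cells, which the study sorted by GFP from a reporter allele of *Zbtb16*). NKT and ILCP express PLZF, the product of *Zbtb16*, while CD4SP and CLP served as the controls of the same tissue. The methods of the study describe 2 or 3 biological replicates of each cell type. The labels number them without saying whether they came from separate mice, so the unit of every p-value is the library.

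T-bet, the product of *Tbx21*, and Eomesodermin, the product of *Eomes*, are related T-box factors that drive type 1 and cytotoxic programmes in T cells, NK cells and type 1 innate lymphoid cells. Zeb2 is a zinc-finger protein that binds E-box DNA and mostly represses, and it acts with T-bet in terminal effector differentiation. Blimp-1, the product of *Prdm1*, is a repressor that promotes terminal differentiation of plasma cells and effector T cells. In the thymus, T-bet marks the NKT cells that make interferon gamma, and innate lymphoid precursors give rise to T-bet-dependent cells only after further steps.

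The lists held 33648 and 37909 peaks in CD4SP, 34701 and 38793 in NKT, 19343, 41535 and 40136 in CLP and 26328 and 25771 in ILCP. CLP replicate 1 therefore stood apart from the other CLP libraries, and an absent peak in it, or in ILCP, was counted in a shorter list. The depth of each library is unknown, and no peak means only that none was called. Because each library is a pool of nuclei, fewer cells with an open site and less opening per cell cannot be told apart. The labels were checked against marker loci. *Zbtb16* had 13 and 12 peaks in NKT, 3 and 3 in CD4SP, 7 and 9 in ILCP and 0, 7 and 2 in CLP. The T lineage markers (*Cd3e*, *Cd3d*, *Cd4*, *Cd8a*, *Lck*) had 20 to 28 peaks in all per thymic library and 7 to 12 per bone marrow library, with *Cd8a* at 0 in NKT and ILCP. Of the NK cell markers, *Ncr1* had 0 peaks in each thymic library, 0, 1 and 1 in CLP and 3 and 2 in ILCP, while *Klrb1c* had 7 and 9 in CD4SP, 4 and 5 in NKT, 2, 2 and 3 in CLP and 2 and 2 in ILCP. Across the 4 cell types, the ILCP and CLP marker lists did not set their own type apart. The ILCP markers (*Id2*, *Tox*, *Pdcd1*, *Gata3*) had 27 to 29 peaks in all in CD4SP, 28 in NKT, 10 to 18 in CLP and 15 to 20 in ILCP. The CLP markers (*Flt3*, *Kit*, *Rag1*, *Dntt*) had 23 in CD4SP, 17 to 21 in NKT, 16 to 26 in CLP and 10 to 14 in ILCP. Within the bone marrow, the CLP list was thus higher in every CLP than in every ILCP library. Of its genes, *Dntt* alone had this order. *Id2* and *Pdcd1* had more peaks in every ILCP than in every CLP library, while *Tox* and *Gata3* overlapped. Of the myeloid markers, *Csf1r* had 0 in each thymic library and 1 to 3 in each bone marrow library. The 4 myeloid loci together had 3 to 7 peaks per thymic library, 8 to 14 in CLP and 5 to 6 in ILCP, and the 4 B lineage loci had 11 to 14, 8 to 23 and 12 to 13. The part of other cell types in the results was not tested.

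The intervals that best show how the loci differed between cell types are given by the central 300 bases, read from GRCm38.p6 (mm10) on the plus strand. Capitals mark matches, on either strand, to 7 short motifs. The letters searched were TGTGGT for the Runx family of factors, GGTGTGA for the T-box family that includes T-bet, and TGANTCA for the dimers of the AP-1 family. For the TCF/LEF family, which includes TCF-1, they were TCAAAG, and for the zinc-finger family of GATA factors AGATAA. The last were AGGAAGT for the large ETS family and CACCTG, the E-box form that Zeb proteins also read. Positions within the window are counted from 1 at its lower coordinate. The intervals of *Tbx21* and *Eomes* were chosen after their values were seen, as the ones open in the most libraries. Those of *Zeb2* and *Prdm1* were open in all libraries of 1 type and in none of the type it was compared with.
Tbx21 upstream interval, chr11:97127133-97127432, open in the 4 thymic libraries: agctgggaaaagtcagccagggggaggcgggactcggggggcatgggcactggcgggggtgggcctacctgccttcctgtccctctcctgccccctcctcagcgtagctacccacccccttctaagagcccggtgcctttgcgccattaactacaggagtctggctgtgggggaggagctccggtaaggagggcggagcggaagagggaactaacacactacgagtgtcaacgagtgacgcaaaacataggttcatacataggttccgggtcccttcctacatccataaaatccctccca
Eomes downstream interval, chr9:118489550-118489849, open in 6 libraries and no ILCP library: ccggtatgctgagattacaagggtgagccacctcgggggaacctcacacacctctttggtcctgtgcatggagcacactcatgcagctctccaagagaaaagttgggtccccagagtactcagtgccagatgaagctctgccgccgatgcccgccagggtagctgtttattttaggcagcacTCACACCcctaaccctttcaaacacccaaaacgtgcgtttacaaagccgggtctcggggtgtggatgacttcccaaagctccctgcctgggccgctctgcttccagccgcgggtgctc
Zeb2 intron 1, chr2:45114574-45114873, open in both ILCP libraries alone: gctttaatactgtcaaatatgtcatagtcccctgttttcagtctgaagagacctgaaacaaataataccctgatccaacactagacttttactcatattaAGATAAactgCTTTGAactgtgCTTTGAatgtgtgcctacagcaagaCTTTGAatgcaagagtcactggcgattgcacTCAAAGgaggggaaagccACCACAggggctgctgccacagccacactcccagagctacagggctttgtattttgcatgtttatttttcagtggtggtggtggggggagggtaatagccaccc
Zeb2 exon 5 and its flanks, chr2:45017315-45017614, open in both CD4SP, both NKT and both ILCP libraries and in no CLP library: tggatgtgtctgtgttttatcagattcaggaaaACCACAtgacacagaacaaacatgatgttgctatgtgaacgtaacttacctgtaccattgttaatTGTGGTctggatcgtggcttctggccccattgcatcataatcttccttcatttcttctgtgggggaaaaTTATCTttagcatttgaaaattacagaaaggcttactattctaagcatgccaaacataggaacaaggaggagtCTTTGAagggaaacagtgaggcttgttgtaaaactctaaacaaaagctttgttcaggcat
Prdm1 upstream, chr10:44462193-44462492, open in both NKT libraries alone: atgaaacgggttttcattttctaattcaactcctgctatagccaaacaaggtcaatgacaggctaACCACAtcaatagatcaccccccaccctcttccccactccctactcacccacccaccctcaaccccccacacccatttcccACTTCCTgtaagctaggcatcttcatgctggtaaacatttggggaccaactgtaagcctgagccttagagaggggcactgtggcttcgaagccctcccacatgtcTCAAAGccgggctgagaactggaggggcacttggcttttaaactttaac
Prdm1 intron 3, chr10:44450773-44451072, open in both ILCP libraries alone: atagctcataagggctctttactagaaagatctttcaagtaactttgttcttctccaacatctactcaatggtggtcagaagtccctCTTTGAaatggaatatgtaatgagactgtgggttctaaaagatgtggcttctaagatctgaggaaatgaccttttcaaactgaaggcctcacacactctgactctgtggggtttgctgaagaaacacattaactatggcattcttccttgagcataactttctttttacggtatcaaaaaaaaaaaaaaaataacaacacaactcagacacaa
Prdm1 intron 5, chr10:44446128-44446427, open in both CD4SP libraries alone: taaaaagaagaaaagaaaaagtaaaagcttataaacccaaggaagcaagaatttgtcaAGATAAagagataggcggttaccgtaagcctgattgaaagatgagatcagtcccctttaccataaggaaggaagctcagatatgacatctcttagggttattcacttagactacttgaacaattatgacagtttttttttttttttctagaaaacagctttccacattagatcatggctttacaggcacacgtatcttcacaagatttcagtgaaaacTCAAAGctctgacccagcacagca

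The promoters of *Tbx21* and *Prdm1* are shown as a contrast, since the start of *Tbx21* lay under a peak in 1 library and that of *Prdm1* in all 9. Each is the 250 bases before the start site, on the minus strand of GRCm38.p6, with the same motifs in capitals.
Tbx21 promoter, chr11:97115332-97115581: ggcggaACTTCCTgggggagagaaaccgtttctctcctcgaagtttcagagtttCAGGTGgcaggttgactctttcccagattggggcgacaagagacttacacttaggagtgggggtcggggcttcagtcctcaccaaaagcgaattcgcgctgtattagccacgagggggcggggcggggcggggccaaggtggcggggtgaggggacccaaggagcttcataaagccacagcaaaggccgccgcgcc
Prdm1 promoter, chr10:44458749-44458998: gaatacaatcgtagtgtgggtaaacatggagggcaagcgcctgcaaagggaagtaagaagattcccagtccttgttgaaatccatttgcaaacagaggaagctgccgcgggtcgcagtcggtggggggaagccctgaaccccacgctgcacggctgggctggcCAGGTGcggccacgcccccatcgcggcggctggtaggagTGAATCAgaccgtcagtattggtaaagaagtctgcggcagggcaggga
The *Tbx21* promoter held 1 ETS and 1 E-box match, motifs found in 7.69% and 17.2% of 32851 promoter windows of the same length. The *Prdm1* promoter held 1 AP-1 match (6.75% of windows) and 1 E-box match.

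The loci formed 2 kinds. *Tbx21* and *Eomes* had few peaks, most of them in the thymus, and none in ILCP. *Zeb2* and *Prdm1* had peaks in every library and in every cell type. The windows counted were 57261 bp at *Tbx21* and 47921 bp at *Eomes*, but 173764 bp at *Zeb2* and 131325 bp at *Prdm1*. Peak numbers were not scaled by these lengths, so they do not compare how densely the loci are open. The plot of all 35 intervals by library shows this split, with each peak given by its rank. Here and below, the upper percent of a peak is its rank by score within its library as a percent of that library's list, so that a low value means a high score. What the score measures is not given in the sources used here, and it was taken as the score of the peak caller. Since the lists differ in length, an order of these percents between libraries can differ from the order of the rank positions themselves.

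**Figure D1:**
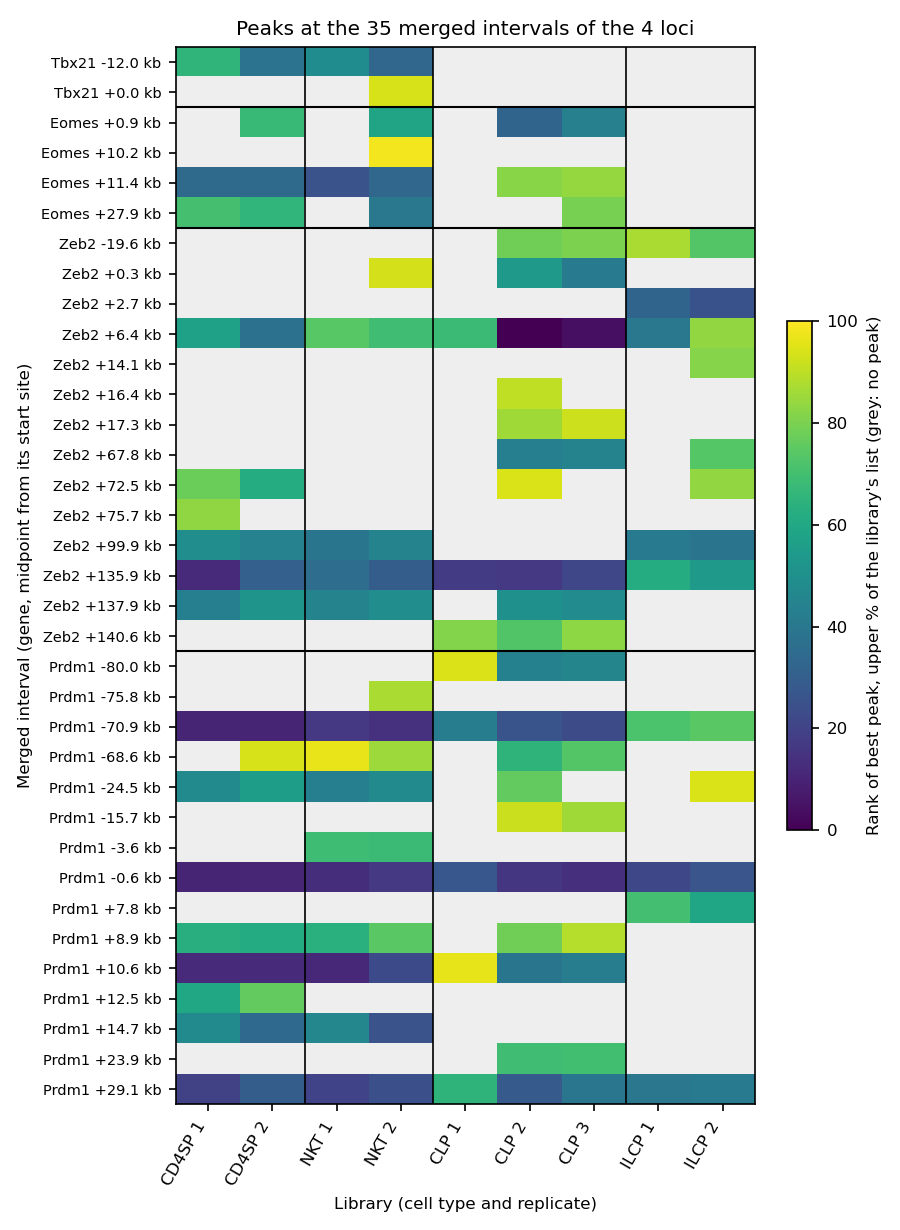
Each row is 1 of the 35 merged intervals, named by its gene and the distance of its midpoint from the start site in kb, and each column is 1 of the 9 libraries. Colour gives the rank of the best peak as the upper percent of the library's list, and grey means no peak, as in all ILCP cells of the *Tbx21* and *Eomes* rows.

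*Tbx21* (ENSMUSG00000001444.2, chr11:97098071-97115331, minus strand, 6 exons) had 1 peak in each CD4SP library, 1 and 2 in NKT, and 0 in all 5 bone marrow libraries. The 4 thymic libraries thus shared a peak, and the bone marrow libraries had none. CD4SP replicate 1 lost the shared peak with an equal number of highest-scoring peaks or with the higher-scoring 50%. A peak in every thymic and in no bone marrow library was found at 1.26% of genes, no peak in any CLP library at 5.08% and none in either ILCP library at 15.5%. The shared peak lay 12 kb before the start site, between genes, in an interval at chr11:97126690-97127877. It ranked in the upper 65.3% and 37.9% of the CD4SP lists and the upper 48.6% and 32.9% of the NKT lists. These ranks overlapped between the cell types, with the better rank of either type in its replicate 2. None of the 7 motifs was found in the central 300 bases printed above.

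The start site of *Tbx21* was under a peak in NKT replicate 2 alone, at the upper 94% of that list and a score of 132.25, near the lowest score of 120.01 that the list holds. A start under a peak in 1 library alone was found for 2.85% of genes. The mean number of peaks was 1.5 ± 0.707 in NKT and 1 ± 0 in CD4SP (SD, n = 2 libraries each), which differed by 0.5 (two-sided exact permutation p = 1, where 0.333 is the lowest that can be reached). Without NKT replicate 2 the difference was 0. The bone marrow difference of 0 became -1.33 between ILCP and CLP with 50 kb in place of 20 kb on each side.

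*Eomes* (ENSMUSG00000032446.14, chr9:118478212-118486132, plus strand) had 2 and 3 peaks in CD4SP, 1 and 4 in NKT, 0, 2 and 3 in CLP and 0 and 0 in ILCP. Both thymic types and CLP thus reached 3 or 4 peaks in 1 library, while neither ILCP library nor CLP replicate 1 had any. Its most widely open interval lay beyond the 3' end, 11.4 kb from the start of Eomes-201, at chr9:118489076-118490324, where a noncoding transcript, Gm33460, begins. There the CD4SP peaks ranked in the upper 34.7% and 34.5% of their lists and the NKT peaks in the upper 25.7% and 33.1%, while CLP replicates 2 and 3 had peaks at 82.1% and 84.1%. Both thymic types thus ranked well above CLP within their lists. This window, printed above, held the sole T-box match among the 35 intervals, at bases 183 to 189.

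An interval over exon 1 of *Eomes*, at chr9:118478459-118479962, was open in CD4SP replicate 2 (upper 67.9%), NKT replicate 2 (58.4%) and CLP replicates 2 and 3 (32.2% and 43.4%). It was ranked highest in CLP, the reverse of the order at the downstream interval. It covered the start of Eomes-203 and began past the starts of Eomes-201 and Eomes-202, which lay under no peak in any library. A start open in at least 1 library of CD4SP, NKT and CLP and in neither ILCP library was found for 11.3% of genes. The other intervals lay 10.2 kb from the start, in NKT replicate 2 alone (98.4%), and 27.9 kb from it, over the start of the neighbouring gene *Golga4*. The latter was open in both CD4SP libraries, NKT replicate 2 and CLP replicate 3. Without peaks over starts of other genes, the difference between NKT and CD4SP was 1 peak in place of 0.

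The mean number of *Eomes* peaks was 2.5 ± 0.707 in CD4SP and 2.5 ± 2.12 in NKT (SD, n = 2 each), which did not differ in the mean (two-sided exact permutation p = 1). It was 1.67 ± 1.53 in CLP (n = 3) and 0 ± 0 in ILCP (n = 2), and the difference of ILCP from CLP was -1.67 (two-sided exact permutation p = 0.4, where 0.1 is the lowest that can be reached). The bone marrow groups overlapped, since CLP replicate 1 also had 0. The difference was -2.5 without CLP replicate 1, -1 without CLP replicate 3 and -0.667 with an equal number of peaks, with the higher-scoring 50% or with no extension of the gene body.

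**Figure D2:**
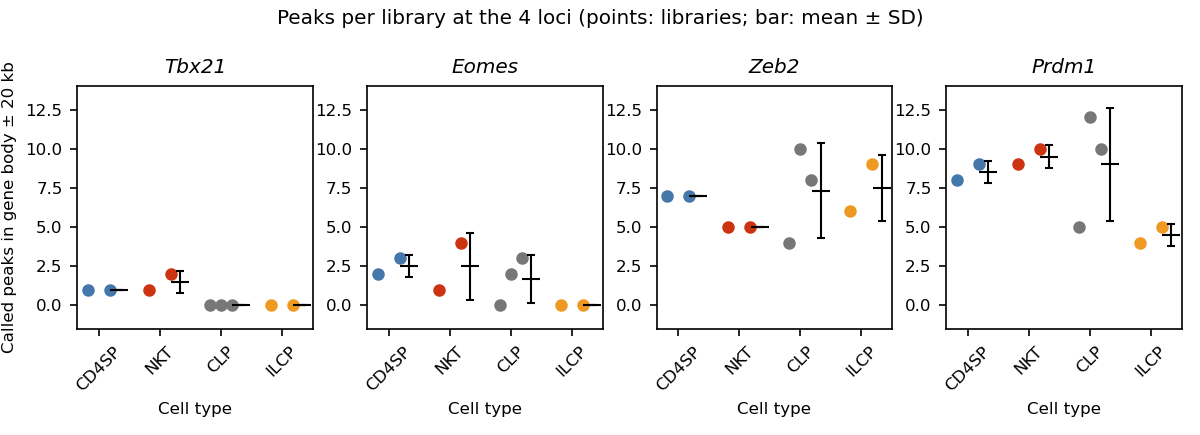
The number of called peaks in the gene body with 20 kb on each side is shown per gene, with 1 point per library and a black bar for the mean ± SD of each cell type. *Tbx21* and *Eomes* are at 0 in ILCP, the 2 CD4SP libraries have 7 *Zeb2* peaks and the 2 NKT libraries 5, and CLP replicate 1 is the lowest CLP library at 3 of the loci.

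*Zeb2* (ENSMUSG00000026872.17, chr2:44983632-45117395, minus strand) had 7 and 7 peaks in CD4SP, 5 and 5 in NKT, 4, 10 and 8 in CLP and 6 and 9 in ILCP. Each CD4SP library was above each NKT library, while CLP and ILCP overlapped. Every CD4SP library had more peaks than every NKT library at 6.15% of genes. The difference between NKT and CD4SP was -2 peaks (two-sided exact permutation p = 0.333, the lowest that can be reached). Per 10,000 peaks of the library, the values were 2.08 and 1.85 in CD4SP and 1.44 and 1.29 in NKT, again without overlap, as at 16.1% of genes. Peaks covered 7132 and 7319 bp in CD4SP and 4186 and 5228 bp in NKT, an order without overlap that was found at 14.2% of genes. Counted as merged intervals with a peak, CD4SP had 6 and 5 and NKT had 4 and 5, so that the groups overlapped. The difference in peaks was -1 without peaks over starts of other genes and 0 among the higher-scoring 50% of each list. It was -0.5 with an equal number of highest-scoring peaks, where the groups overlapped, and -3.5 with 50 kb on each side. The difference between ILCP (7.5 ± 2.12, n = 2) and CLP (7.33 ± 3.06, n = 3) was 0.167 (two-sided exact permutation p = 1), and it was -1.5 without CLP replicate 1.

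The start region of *Zeb2* differed in the extent of its peaks. Most of its annotated transcripts begin at Zeb2-212, the first start, or in a cluster 4 to 7 kb further in. Those of Zeb2-218, Zeb2-227 and Zeb2-229 begin much deeper in the gene, under no peak in any library. In the merged interval that holds the cluster, a single peak of 5514 bp was called in CLP replicate 2, with a score of 3100.00 and a rank in the upper 0.279% of its list. CLP replicate 3 had a single peak of 5464 bp there, in the upper 4.28%. Only 47 peaks of the first library (0.113%) and 41 of the second (0.102%) were as wide. CLP replicate 1 had separate peaks of 866 and 628 bp over the same stretch, at 68.2% and 76.5%, so the wide form was called in 2 of the 3 CLP libraries.

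In ILCP replicate 1, peaks of 1384 and 439 bp were called in this interval (upper 40% and 94.1%), and in ILCP replicate 2 peaks of 589 and 559 bp (99.4% and 83.9%). CD4SP replicate 1 had peaks of 768 and 1059 bp (88.2% and 57.3%) and CD4SP replicate 2 of 928 and 1805 bp (76.7% and 37.4%). NKT replicate 1 had 1 peak in the interval, of 874 bp (73.9%), and NKT replicate 2 had 1 of 846 bp (69.3%), at a different place. No start of the cluster lay under the peak of NKT replicate 2 or under the peaks of 768 and 928 bp of CD4SP, which lay past it.

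Of the 15 starts of coding transcripts in the cluster, 5 split by tissue. Those of Zeb2-202, Zeb2-207, Zeb2-213, Zeb2-215 and Zeb2-228, from 45112985 to 45113284, lay under a peak in all 5 bone marrow libraries and in no thymic library. Among 46039 start positions of protein-coding genes under a peak in any library, 1.19% had this pattern. The starts of Zeb2-214, Zeb2-216 and Zeb2-221, from 45110244 to 45110452, lay under a peak in 8 libraries, all but NKT replicate 2, and those of Zeb2-201 and Zeb2-224 in 7, all but NKT replicate 2 and ILCP replicate 2. Zeb2-211 and Zeb2-219 began under a peak in both CD4SP libraries and CLP replicates 2 and 3, and Zeb2-220 and Zeb2-222 in CD4SP replicate 2 and CLP replicates 2 and 3. Zeb2-203 began under a peak in 4 of the 5 bone marrow libraries, all but ILCP replicate 1, and in no thymic library. The first start, at 45117395, lay under a peak in NKT replicate 2 (93.7%), CLP replicate 2 (53.9%) and CLP replicate 3 (40.9%). The map of the start region shows that, apart from NKT replicate 2 at the first start, thymic peaks lay over the starts of the cluster furthest from the first start or past the cluster.

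**Figure D3:**
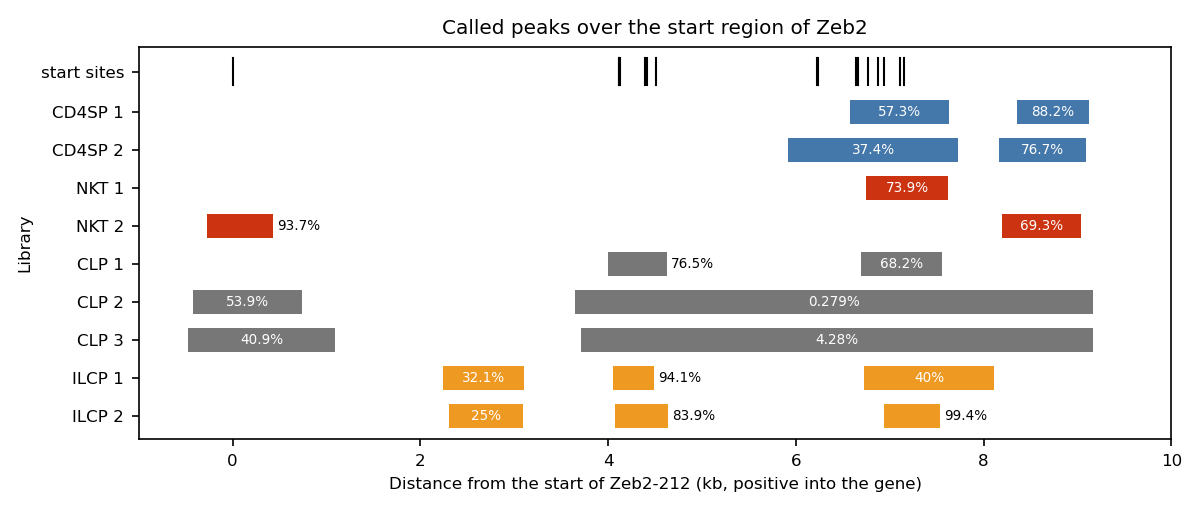
Called peaks over the start region of *Zeb2* are drawn to scale for the 9 libraries, by distance in kb from the start of Zeb2-212, with ticks for the annotated starts of coding transcripts. The percent at each bar is the rank of the peak within its library (0.279% and 4.28% for the wide peaks of CLP replicates 2 and 3), and bars over the starts near 4 kb are seen in bone marrow libraries alone.

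Intron 1 of *Zeb2* held an interval, 2.7 kb from the first start at chr2:45114289-45115159, that was open in ILCP alone, in both libraries. Its peaks ranked in the upper 32.1% and 25% of the ILCP lists, the best ranks of any ILCP peak at *Zeb2*. Intervals open in both ILCP libraries alone made up 3.66% of all merged intervals and 2 of the 35 here (5.71%). The central window held 4 TCF/LEF matches, 1 GATA match and 1 Runx match. TCF/LEF letters were found in 23% of 71393 windows of this kind, GATA letters in 14.5% and Runx letters in 32.1%.

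At exon 5 of *Zeb2*, 99.9 kb from the first start at chr2:45016879-45018051, an interval was open in both CD4SP (upper 49% and 44.2%), both NKT (39% and 44.9%) and both ILCP libraries (40.7% and 38.3%), and in no CLP library. As percents of lists of different length these ranks overlapped. By rank position the ILCP peaks, at 10714 and 9864, came ahead of those of CD4SP, at 16502 and 16771, and of NKT, at 13524 and 17430. The interval was absent even from the 2 long CLP lists. Such a pattern was found at 1.34% of all intervals. Its window held 2 Runx matches, 1 TCF/LEF match and 1 GATA match.

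An interval in intron 3, at chr2:45044271-45045517, was open in both CD4SP libraries (77.4% and 61.8%) and in no NKT library, but also in CLP replicate 2 (94.3%) and ILCP replicate 2 (83.7%). Beyond the 3' end, 136 kb from the first start, an interval was open in all 9 libraries. It ranked in the upper 11.8% and 30.7% in CD4SP, 35.9% and 29.4% in NKT, 17.9%, 16.7% and 21.4% in CLP and 61.9% and 53.8% in ILCP, so that the ILCP ranks were the lowest. An interval at 138 kb was open in the 4 thymic libraries and CLP replicates 2 and 3, and one at 141 kb in the 3 CLP libraries alone (81.5%, 73% and 83.2%). The remaining *Zeb2* intervals, 6 of the 14, were open in 1 to 4 libraries. At 19.6 kb before the first start, CLP replicates 2 and 3 and both ILCP libraries had a peak (73.2% to 87.2%) and no thymic library did. The interval at 67.8 kb was open in CLP replicates 2 and 3 and ILCP replicate 2, and that at 17.3 kb in CLP replicates 2 and 3.

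*Prdm1* (ENSMUSG00000038151.13, chr10:44437177-44528501, minus strand) had 8 and 9 peaks in CD4SP, 9 and 10 in NKT, 5, 12 and 10 in CLP and 4 and 5 in ILCP. The ILCP libraries were the lowest, with CLP replicate 1 level with ILCP replicate 2, and the thymic types overlapped. Distances at *Prdm1* are counted from the start of Prdm1-201 at 44458748, since the far end of the gene body is set by a transcript with a retained intron whose own start lay under no peak. The start of Prdm1-201 was under a peak in all 9 libraries, as was a start of 37.3% of genes. Its best peak ranked in the upper 10.4% and 10.9% in CD4SP, 13.1% and 16.5% in NKT, 27.2%, 15.7% and 14% in CLP and 21.5% and 26.3% in ILCP. The percents were highest in CLP replicate 1 and both ILCP libraries, which have the 3 shortest lists. By rank position the peak was at 5254, 6539 and 5602 in CLP and 5654 and 6789 in ILCP, where the types overlapped and CLP replicate 1 came first.

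The difference in *Prdm1* peaks between ILCP (4.5 ± 0.707, n = 2) and CLP (9 ± 3.61, n = 3) was -4.5 (two-sided exact permutation p = 0.3), and it ranged from -6.5 without CLP replicate 1 to -3 without CLP replicate 2. With the same number of highest-scoring peaks in every list, it was -1, from 5 peaks in each CLP and 4 in each ILCP library, and among the higher-scoring 50% it was -2. Across all genes, the median of this difference was -0.5, with 63.2% of genes below 0, so that fewer peaks in ILCP than in CLP were common. Per 10,000 peaks of the library, *Prdm1* had 2.58, 2.89 and 2.49 in CLP and 1.52 and 1.94 in ILCP. On this scale the groups did not overlap (two-sided exact permutation p = 0.1, the lowest that can be reached), and every CLP library was above every ILCP library at 18.5% of genes. The bases covered by peaks were 3994, 12558 and 10554 in CLP and 3417 and 3613 in ILCP, again without overlap, as at 23.6% of genes. Between NKT (9.5 ± 0.707) and CD4SP (8.5 ± 0.707) the difference was 1 peak (two-sided exact permutation p = 0.667). Per 10,000 peaks, the 2.59 and 2.58 of NKT lay just above the 2.38 and 2.37 of CD4SP, an order found at 11.1% of genes.

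**Figure D4:**
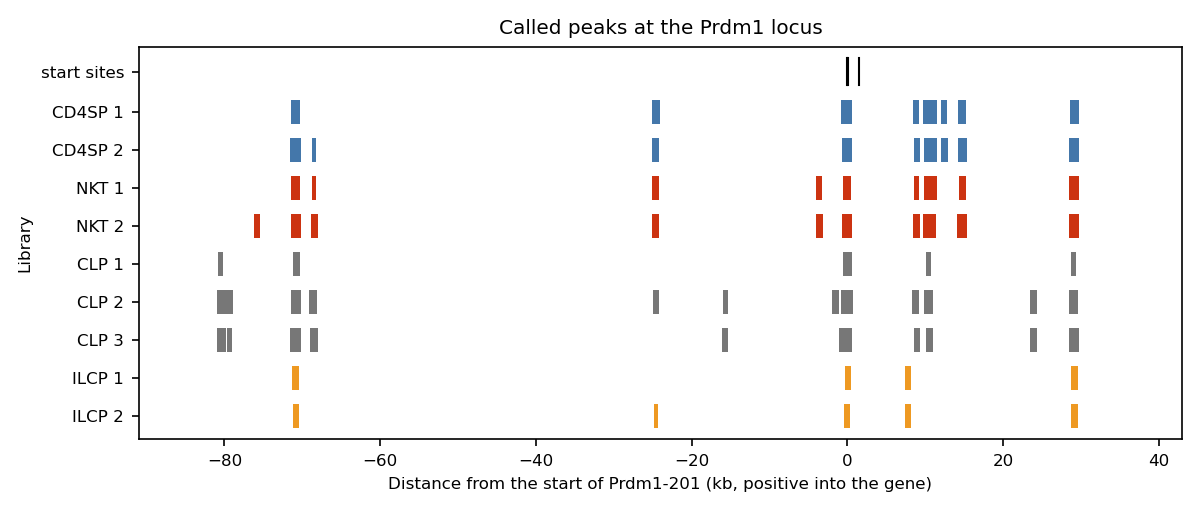
Called peaks at the *Prdm1* locus are drawn to scale for the 9 libraries by distance in kb from the start of Prdm1-201, with ticks for the annotated starts of coding transcripts. The thymic libraries have a row of peaks between about 9 and 15 kb into the gene, where the 2 ILCP libraries have none, and each ILCP library has a peak at 7.8 kb.

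The interior of *Prdm1* is taken here as lying between the interval over the start of Prdm1-201 and the end of the gene. Of its 5 intervals, 4 had no ILCP peak, as had 59.3% of all merged intervals. One in intron 4, 10.6 kb from the start at chr10:44447202-44449058, ranked in the upper 12.3% and 11.9% in CD4SP and 11.6% and 22.5% in NKT. The peak over the start ranked higher in each of these libraries but NKT replicate 1, where it was at 13.1%. In CLP the intron 4 interval was open at 96.3% (rank 18627 of the shortest list), 39% and 42.2%, and no ILCP library had a peak. Intervals open in at least 1 CD4SP, NKT and CLP library and in no ILCP library made up 8.45% of all. Its neighbour at 8.9 kb was open in the 4 thymic libraries (61.4% to 74.4%) and in CLP replicates 2 and 3 (78.2% and 89%). An interval in intron 5, 14.7 kb from the start, was open in the 4 thymic libraries (47.5% and 34% in CD4SP, 46.2% and 25.6% in NKT) and in no bone marrow library, a class of 7.04% of all intervals and 2 of the 35 here (5.71%).

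ILCP had a single peak in the interior, in intron 3 at chr10:44450494-44451353, 7.8 kb from the start, with no peak there in CD4SP, NKT or CLP. It ranked in the upper 70.3% and 58.9% of the ILCP lists. Its window, printed above, held 1 TCF/LEF match. CD4SP alone was open in intron 5 at chr10:44445823-44446734, 12.5 kb from the start (59.9% and 76.1%), a class of 2.65% of all intervals. NKT alone was open 3.6 kb before the start at chr10:44461870-44462817 (69% and 68.1%), a class of 1.96%. With an equal number of highest-scoring peaks or the higher-scoring 50%, no interval at the 4 loci was specific to NKT. The NKT window held Runx, ETS and TCF/LEF matches, and the CD4SP window held GATA and TCF/LEF matches. ETS letters were found in 19.7% of windows.

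Far from the promoter of *Prdm1*, 2 further intervals were open in all 9 libraries. The one 70.9 kb before the start ranked in the upper 10.5% and 10.5% in CD4SP, 16.7% and 14.4% in NKT, 41.8%, 26% and 23.2% in CLP and 71.6% and 74.5% in ILCP. This order, CD4SP and NKT first and ILCP last, held without overlap between the thymus, CLP and ILCP, as percents and by rank position. The one beyond the 3' end, at 29.1 kb, ranked in the upper 19.7% and 29.3% in CD4SP, 20.2% and 24.6% in NKT, 65%, 28.3% and 39.2% in CLP and 39.8% and 40.9% in ILCP. As percents CLP and ILCP overlapped, but by rank position the ILCP peaks, at 10484 and 10540, came ahead of the CLP peaks, at 12573, 11771 and 15741. At 24.5 kb before the start, the thymic libraries ranked at 43.1% to 55.9%, against 75.9% in CLP replicate 2 and 94.4% in ILCP replicate 2. At 80 kb before it, at chr10:44537674-44539732, an interval was open in the 3 CLP libraries alone (best ranks 94.9%, 43.8% and 45.5%). The other 4 *Prdm1* intervals were open in 1 to 5 libraries, and those at 15.7 kb before and 23.9 kb after the start in CLP replicates 2 and 3 alone.

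Over the 4 loci, the shares of type-specific intervals were set beside those of the genome, where specific means open in every library of a type and in no library of the compared type. Of the 35 intervals, 1 was specific to NKT against CD4SP (2.86%, against 4.3% of all intervals) and 2 to CD4SP (5.71%, against 3.46%). In the bone marrow, 3 were specific to ILCP (8.57%, against 6.34%) and 3 to CLP (8.57%, against 5.97%). No interval was specific to both NKT and ILCP. Counts of 1 to 3 lie near these shares, and no test was run over the members. When CLP replicate 1 was not required, 12 of the 35 intervals were specific to CLP (at *Zeb2* and *Prdm1* and also at *Eomes*). Of all intervals, 22.4% were open in at least 2 of the 3 CLP libraries and in no ILCP library. That rule is looser, since it allows any pair of CLP libraries, and the share under the stricter rule was not computed.

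Intervals open in all 9 libraries numbered 5 (14.3%, against 13.3%), all at *Zeb2* or *Prdm1*. In 1 of these, the wide interval over the start cluster of *Zeb2*, the peaks of the NKT libraries shared no base. Intervals open in all bone marrow and no thymic library numbered 0, against 2.04%. Intervals open in CLP replicates 2 and 3 alone numbered 3 (8.57%, against 10.2%), and those open in 1 library alone 6 (17.1%, against 18%). In all, 22 of the 35 intervals had no ILCP peak (62.9%, against 59.3% of all intervals). The number open in at least 1 library was 19 in CD4SP, 21 in NKT, 23 in CLP and 13 in ILCP.

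The NKT and ILCP differences from their controls were also summed per gene. The sum was 0.5 for *Tbx21* (two-sided exact p = 1, labels permuted within each tissue), -1.67 for *Eomes* (exact p = 0.467), -1.83 for *Zeb2* (exact p = 0.533) and -3.5 for *Prdm1* (exact p = 0.367), where 60 arrangements allow a p of 0.0167. With an equal number of peaks in every list, the sums of *Eomes* and *Prdm1* were -0.167 and -0.5, and that of *Zeb2* reversed to 0.333. Per 10,000 peaks of the library the *Zeb2* sum was 0.131, also reversed. With 1 library left out, the *Eomes* sum ranged from -3.17 without NKT replicate 2 to -0.167 without NKT replicate 1, and the *Prdm1* sum from -5.5 without CLP replicate 1 to -2 without CLP replicate 2. The *Zeb2* sum ranged from -3.5 without CLP replicate 1 to -0.333 without ILCP replicate 1. Of all genes, 645 (3.64%) had an exact p at or under 0.05 and 0 after adjustment by the Benjamini-Hochberg method over all 17744 genes, with a lowest adjusted p of 0.994. The bone marrow difference of *Prdm1* was lower than the thymic one by 5.5 peaks (two-sided exact permutation p = 0.133 for the difference between the tissues), a test that gave a p at or under 0.05 for 2.53% of genes.

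The wider effector network was described from 25 genes in lists of regulators of T-bet, of target and effector genes, and of other factors of lymphocyte fate. These lists were chosen with earlier results of these data known, so a share above that of all genes is no test of the network. Of them, 2 had more peaks in every NKT than in every CD4SP library (8%, against 8.83% of all genes) and 5 fewer (20%, against 6.15%). *Klrg1*, an inhibitory receptor of effector cells, had 0 and 2 peaks in CD4SP against 4 and 3 in NKT. *Nfil3*, a factor needed for innate lymphoid precursors, had 1 and 1 against 3 and 3.

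The genes with fewer peaks in NKT were *Ifngr1*, a chain of the interferon gamma receptor, and 4 factors tied to naive or follicular T cells, *Bcl6*, *Bach2*, *Tcf7* and *Foxo1*. *Bach2*, a repressor of effector differentiation, had 21 and 18 peaks in CD4SP against 15 and 14 in NKT. *Bcl6*, a mutual antagonist of Blimp-1, had 6 and 7 against 5 and 3. *Tcf7*, the gene of TCF-1, had 7 and 10 against 4 and 6. At *Foxo1* the counts were 3 and 4 against 1 and 2, and at *Ifngr1* 9 and 10 against 6 and 7.

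In the bone marrow, 4 of the 25 had more peaks in every ILCP than in every CLP library (16%, against 4.53% of all genes) and 2 fewer (8%, against 9.68%). *Nfil3* had 0, 1 and 2 peaks in CLP against 4 and 4 in ILCP. *Id2*, an inhibitor of E proteins needed for innate lymphoid cells, had 1, 2 and 2 against 3 and 3. *Klrg1* had 1, 4 and 4 against 5 and 6, and the chemokine gene *Ccl5* 0, 0 and 0 against 2 and 1. *Bcl6* had 1, 4 and 3 in CLP against 0 and 0, and *Cxcr3*, a chemokine receptor gene induced by T-bet, 1, 1 and 1 against 0 and 0. Thus *Klrg1* and *Nfil3* were higher and *Bcl6* lower in both comparisons without overlap, patterns found at 0.851% and 0.857% of all genes. Their summed differences were 5 for *Nfil3* (exact permutation p = 0.0167), 5 for *Klrg1* (exact p = 0.05) and -5.17 for *Bcl6* (exact p = 0.0333), each with an adjusted p of 0.994.

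The median difference over the 25 genes was 0 between NKT and CD4SP and -0.333 between ILCP and CLP, against 0 and -0.5 over all genes. Among the targets of T-bet, *Ifng* had 2 and 1 peaks in CD4SP, 2 and 3 in NKT and 0 in the 5 bone marrow libraries, and *Gzmb*, the gene of granzyme B, had 1 in each thymic and 0 in each bone marrow library. *Il2rb*, a cytokine receptor chain induced by T-bet and Eomesodermin, had 2, 4, 3 and 3 peaks in the thymic libraries and 1 peak in the bone marrow, in CLP replicate 3. *Ifng* and *Gzmb* were the 2 of the 9 target and effector genes with a peak in every thymic and in no bone marrow library, a pattern found at 1.26% of all genes, and no test was run on these genes for it. Of the other 7, *Cxcr3* had peaks in CLP alone and *Fasl* had 8 to 9 per thymic and 3 to 5 per bone marrow library. The plot of both differences for these genes and the members shows *Nfil3* and *Klrg1* at the upper right and *Prdm1* below.

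**Figure D5:**
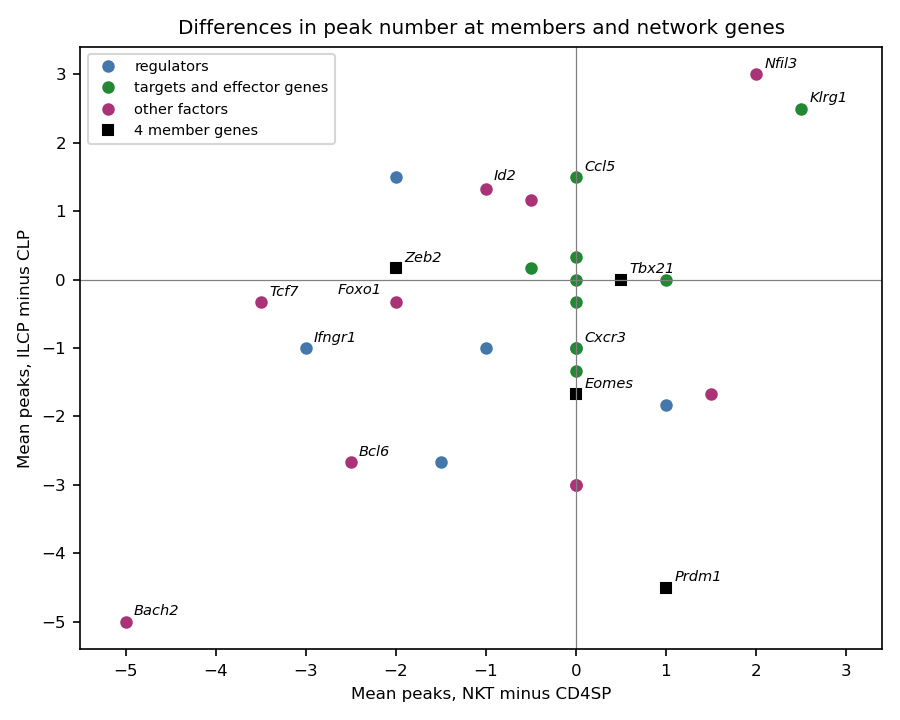
The difference in mean peaks between NKT and CD4SP (horizontal axis) is plotted against that between ILCP and CLP (vertical axis) for the 25 network genes, coloured by list, and the 4 member genes (black squares). Named circles have groups that do not overlap in at least 1 comparison, points with equal values lie on each other, and *Prdm1* is at 1 and -4.5.

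Genes whose pattern was most like each member were found by the summed absolute difference in bases covered by peaks over the 9 libraries, as a description. For *Tbx21* they were *Tmprss4* (504 bp), *Dkkl1* (598 bp) and *Msln* (702 bp), against 4494 bp covered at *Tbx21* in all. These 3 genes too had peaks in the thymic libraries alone. For *Eomes* they were *Ppp1cc* (1327 bp), *Ly6g6e* (1373 bp) and *Setdb1* (1438 bp), against 12856 bp. For *Zeb2* they were *Plxdc2* (5457 bp), *Gmds* (6656 bp) and *P2ry14* (7053 bp), against 64283 bp, and for *Prdm1* they were *Traf3ip3* (6613 bp), *Tbc1d1* (6845 bp) and *Arhgap31* (6877 bp), against 73372 bp.

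The motif letters in the central 300 bases were counted in all 35 intervals and in 71393 windows of the genome. Runx letters were in 9 (25.7%, against 32.1% of windows) and TCF/LEF letters in 10 (28.6%, against 23%). ETS letters were in 9 (25.7%, against 19.7%), the E-box in 8 (22.9%, against 22.1%) and GATA letters in 7 (20%, against 14.5%). AP-1 letters were in 5 (14.3%, against 9.64%) and T-box letters in 1 (2.86%, against 4.53%). A match is a description of the letters and shows no binding.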

How the data were processed

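ATAC-seq peak lists of 9 libraries were used, 2 each of CD4SP, NKT and ILCP and 3 of CLP, grouped by the sample titles. The authors aligned reads of 50 bp to mm10 with Bowtie, allowed 2 mismatches, and called peaks with MACS in each library without pooling. Picard and HOMER are also named in the submitters' processing notes. Each deposited row holds the coordinates of 1 peak and a number taken here as its score by the peak caller, since no source used here states what it is. MACS settings, duplicate removal and any shift of read ends are not given in the sources used here. Differences in depth change how many peaks are called, so scores were used only as ranks within a library. The Runx1 ChIP library and its input, 2 samples, were not analysed here.

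Starts were converted to positions counted from 1. Peaks were merged across libraries, and a library was open in an interval if it had at least 1 bp of a peak there. Genes, exons and start sites came from GENCODE M21 and sequences from GRCm38.p6, read with pysam 0.24.0 in Python 3.11.15 with numpy 2.4.6. Exon sequences of 37 of 37 member transcripts matched the genome. Group means were compared by exact permutation of library labels, two-sided, within a tissue or within both tissues, for all 17744 genes with a peak, and adjusted over them by the Benjamini-Hochberg method. The code was tested on simulated data.

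Described in full were intervals specific to a type, open in all 9 libraries or over a start of a member. Genes most alike were the 3 with the smallest summed difference in covered bases whose windows do not overlap that of the member. The sequences of *Zeb2* and *Prdm1* were taken from intervals specific to NKT, ILCP or CD4SP, and 1 further such interval of *Zeb2*, in intron 3, is not printed. The member genes and gene lists were chosen with earlier results of these data known. Of the list of network genes, 1 gene is not reported here. Alternatives were an equal number of 19343 highest-scoring peaks, the higher-scoring 50%, extensions of 0, 5 or 50 kb, peak midpoints, no peaks over starts of other genes, peaks per 10,000, bases covered, at least 50% of an interval covered, intervals open in any replicate, a replicate block, and each library left out in turn.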

Additional observations from a re-analysis of the deposited data

How the results depend on the processing

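Of 248 alternative values over 16 results (12 differences in peaks and 4 counts of specific intervals), 211 kept their direction and their side of the threshold (or, for a count, stayed within 1.5 times), 29 moved and 8 reversed. The cause was not tested. No member difference had an exact p at or under 0.05 in the main setting or in any alternative run, and within 1 tissue no p that low can be reached. The *Eomes* difference between NKT and CD4SP, 0 peaks, became 0.5 with an equal number of peaks, the higher-scoring 50%, 5 kb, 50 kb or peak midpoints, 1 without peaks over other starts, -0.0332 per 10,000 peaks and 212 bp in bases covered. The *Zeb2* difference between NKT and CD4SP went from -2 to 0 with the higher-scoring 50%. The *Zeb2* difference between ILCP and CLP, 0.167, reversed to -0.5 with the higher-scoring 50%, -1 with 50 kb and -4364 bp in bases covered. The *Zeb2* sum, -1.83, reversed to 0.333 with an equal number of peaks and 0.131 per 10,000. With 50 kb, the *Tbx21* difference between ILCP and CLP was -1.33 in place of 0 and its sum -0.333 in place of 0.5.

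Intervals specific to CD4SP fell from 2 to 1 with an equal number of peaks and 0 with the higher-scoring 50%. Those specific to NKT, 1, became 0 in both settings and 5 when any library of the type sufficed. Those specific to CLP, 3, became 1 with 5 kb, no extension or 50% cover, 14 when any library sufficed and 12 without CLP replicate 1 as a requirement.

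With each library left out in turn, the *Eomes* difference between NKT and CD4SP ranged from -1.5 to 1.5, with the ends at NKT replicate 2 and NKT replicate 1 left out. The *Tbx21* difference between NKT and CD4SP and its sum ranged from 0 to 1, with 0 without NKT replicate 2. The *Zeb2* difference between ILCP and CLP ranged from -1.5 to 1.67, and it was negative without CLP replicate 1 and, at -1.33, without ILCP replicate 2. Intervals specific to NKT ranged from 1 to 5, with 5 without NKT replicate 1 and 2 without CD4SP replicate 2, and those specific to CLP from 3 to 12, with 12 without CLP replicate 1.

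The replicate numbers were not taken to pair the samples, since nothing in the labels ties them and only 2 numbers are shared. Libraries of equal number did deviate alike in the thymus (correlation of deviations 0.526 over 17744 genes for NKT and CD4SP). They did not in the bone marrow (-0.0955 for ILCP and CLP). The source of the thymic correlation was not tested. With a replicate block, the differences between NKT and CD4SP were 0.5, 0, -2 and 1 for *Tbx21*, *Eomes*, *Zeb2* and *Prdm1*, and those between ILCP and CLP, without CLP replicate 3, were 0, -1, 0.5 and -4. No direction changed with the block. Depth per library is unknown, and CLP replicate 1 and both ILCP libraries had the shortest lists.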
